A study of Mus musculus with 10 samples.

Results

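The events described here are alternative splicing events whose 2 flanking exons diverge, that is, whose flanks change by different amounts from tissue to tissue. Of the 3126 events on the array, 391 met the rule, and they were chosen by the measured values of C1 and C2 themselves. Each event has 7 probes: 3 lie in exon bodies (the flanking exons C1 and C2 and the alternative exon A), 3 cross the splice junctions C1:A, A:C2 and C1:C2, and the seventh, INT, is of a kind the sources used here do not explain. Probe names write the exons in the order C1, A, C2, but the sources do not state which flank lies upstream. The samples were pooled total RNA from CD1 mice, an outbred strain, with 1 sample for each of testis, brain, heart, muscle, liver, kidney, intestine, lung, spleen and salivary. There were no replicates, so no test across animals was possible, and the sources used here state neither the animals' age nor how many were pooled. Without gene names, no tissue could be checked against its markers. In bulk RNA, fewer cells of a type and less RNA per cell cannot be told apart.

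Most mammalian genes can be transcribed from more than one start site and cleaved and polyadenylated at more than one end site, and both choices differ between tissues. A transcript that starts inside a gene lacks the exons before its start, and one that ends early lacks the exons after its end. On an array of this design, if C1 lies upstream, a transcript that starts between C1 and A carries A, C2 and the junction A:C2 but none of the 3 probes that contain C1. A transcript that starts between A and C2 carries C2 alone, and one that ends between A and C2 carries C1, A and C1:A. These are descriptions of what such RNA would contain. The files pair no event with a gene, a position or a probe sequence, so events are given by number, none was assigned to a start or an end, and no sequence is shown.

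The deposited values lay between 0 and 8.66 on a log-like scale of unstated base, so differences are in units of that scale and not in folds. Arrays were shifted to a common median, after which a deposited 0 can read slightly below or above 0. Array medians as deposited lay between 2.04 and 2.19, and between 0.635% and 3.33% of probes were listed at 0. A deviation is how far a tissue's value lies from the median over the remaining 9 tissues. An event was a member when C1 minus C2 deviated by 1.5 units or more in at least 1 tissue and both flanks reached 3 units together in some tissue, which need not be the diverging one. Both flanks did so in 2089 events. Of these, 1698 did not diverge, and 218 further events passed 1.5 units without reaching the minimum. Each event and tissue past 1.5 units is called a divergence below, and there were 561. C1 and C2 chose the members, so their values are descriptions. The other 5 probe kinds took no part in the choice, but they were read on the same arrays.

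Divergences were spread unevenly over tissues. Testis had 130, where 6.30% of all events passed 1.5 units, and brain had 66, where 3.65% did. Heart had 57 (2.98% of all events), intestine 56 (2.69%), kidney 56 (2.66%), salivary 55 (2.43%) and liver 51 (2.46%). Spleen had 37 (1.86%), muscle 34 (1.66%) and lung 19 (0.928%). These are the contrasts the rule used, so nothing is read from the counts beyond their sizes. Over all events, 19.5% passed 1.5 units in at least 1 tissue. After quantile normalization, which gives all arrays one distribution, salivary had 83 and lung 33, and testis had 96.

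**Figure D1:**
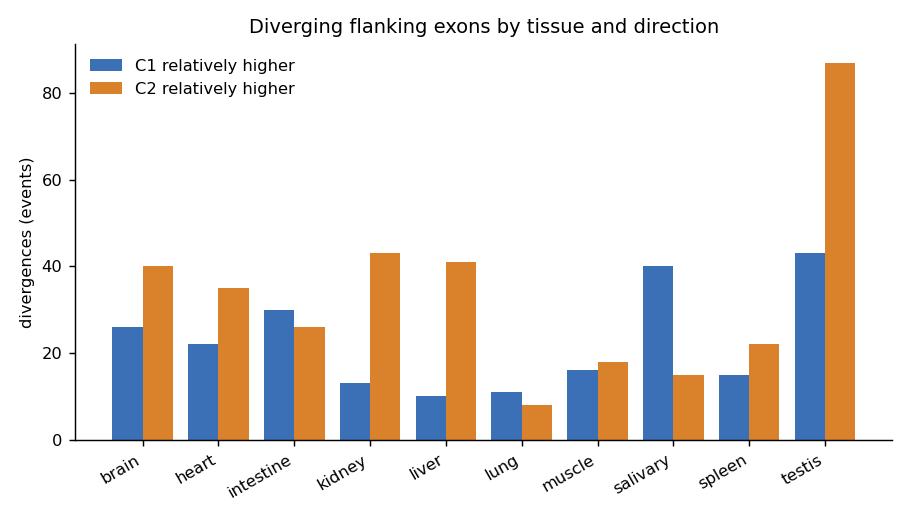
Number of divergences (vertical axis, events) in each of the 10 tissues, 1 sample per tissue, split by whether C1 or C2 was the relatively higher flank. Testis has 87 with C2 relatively higher and 43 with C1, whereas salivary has 40 with C1 relatively higher and 15 with C2.

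C2 was the relatively higher flank in 335 divergences and C1 in 226, or 40.3% of the 561. The balance differed between tissues. Liver had 41 with C2 relatively higher (1.86% of all events) and 10 with C1 (0.608%). Kidney had 43 with C2 relatively higher (1.95% of all events) and 13 with C1 (0.704%). In both, C2 was the relatively higher flank in most. Testis had 87 with C2 relatively higher (4.06% of all events) and 43 with C1 (2.24%). Brain had 40 with C2 relatively higher (2.50% of all events) and 26 with C1 (1.15%). Heart had 35 with C2 relatively higher (1.92% of all events) and 22 with C1 (1.06%). The lean in these 3 was towards C2 as well. Spleen had 22 with C2 relatively higher (0.992% of all events) and 15 with C1 (0.864%). Muscle had 18 with C2 relatively higher (0.832% of all events) and 16 with C1 (0.832%). Salivary ran the other way and had 15 with C2 relatively higher (0.832% of all events) and 40 with C1 (1.60%). Salivary was the tissue with the strongest lean towards C1. Intestine had 26 with C2 relatively higher (1.31% of all events) and 30 with C1 (1.38%). Lung had 8 with C2 relatively higher (0.416% of all events) and 11 with C1 (0.512%). The shares over all events leaned the same way in every tissue but muscle, where they were equal, and after quantile normalization all 10 tissues kept their lean. Other settings did not keep every lean. At a threshold of 1 unit C1 was relatively higher in 65 and C2 in 58 in spleen, and in 63 and 53 in muscle. At 2 units intestine had 9 with C1 relatively higher and 13 with C2. Most members were limited to a single tissue: 276 diverged in 1 tissue, 76 in 2, 28 in 3, 7 in 4, 3 in 5 and 1 in 6. In 47 events the flanks diverged one way in one tissue and the other way in another.

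The divergences closest to the threshold from inside were Ben968 in testis at 1.5006, Ben1114 in muscle at 1.5006 and Ben861 in heart at 1.5013 units. The nearest from outside were Ben3220 in brain at -1.4955, Ben2066 in kidney at 1.4954 and Ben1841 in testis at 1.4952. The median absolute divergence was 1.84 units, 349 lay under 2 units and 47 reached 3 units.

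A divergence can come from either flank, higher or lower. A flank was said to carry it when its own deviation was at least 2 times that of the other flank. C2 carried 276 divergences, 49.2%, being higher than in the other tissues in 200 and lower in 76. C1 carried 135, 24.1%, being higher in 95 and lower in 40. In 103 the flanks moved in opposite directions by like amounts, and in 47 both moved the same way by unequal amounts. Values stop at 0, so a flank that is low in most tissues can rise but hardly fall. In 217 divergences, 38.7%, a flank's level in that tissue or its median elsewhere was under 1.21, the INT probes' median, so these sizes rest in part on low levels.

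Some of the most extreme divergences came from events at which every probe was listed at 0. In event Ben844 all 7 probes were deposited as 0 in brain and in heart, INT among them. Its C2 read between 6.71 in salivary and 8.68 in liver in the remaining 8 tissues, so C1 minus C2 deviated by 6.90 in both brain and heart, the 2 highest values of all. C1 minus C2 was simply 0 there. All 7 probes at 0 occurred in 20 of the 31260 combinations of event and tissue, and 6 of these were divergences: Ben844 in brain and heart, Ben1145 and Ben2508 in salivary, Ben3932 in heart and Ben3984 in muscle. An exact 0 across a whole event may stand for a missing estimate, and no level is read from it. Leaving these out gave 555 divergences in 390 events. In testis Ben844 had measured values throughout and diverged by 4.48. C1 read 5.38 there against at most 1.74 elsewhere, A 5.59 against at most 1.89, C1:A 3.27 against at most 1.71 and C1:C2 4.83 against at most 1.88. C2 at 7.80 and A:C2 at 4.42 lay within the range of the other tissues in testis.

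The junction probes were then set beside the flanks. If the 2 ends of an event differ in level, the junctions C1:A and A:C2 may differ too, so the deviation of C1:A minus A:C2 was compared with that of C1 minus C2. It had the same sign in 313 of 561 divergences, 55.8% (95% Wilson interval 51.7% to 59.8%, which covers counting of events only). Over all 31260 combinations the share was 53.5%, so the sign among divergences was near the background. The 2 deviations correlated across divergences at r = 0.25 and rho = 0.20, against r = 0.11 over all combinations. The points share arrays, and an event can appear in several tissues. In 248 divergences the junction probes thus differed in the direction opposite to the flanks.

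The share with the same sign was higher where the junction difference was larger. A junction difference of 1.5 units or more occurred in 72 divergences, 12.8%, and in 3.37% of all combinations. Among these 72 it had the sign of the flank difference in 56, 77.8% (66.9% to 85.8%), whereas among the 863 such combinations in events that were not members the share was 54.5%. At 1 unit or more the shares were 67.4% of 141 divergences and 55.5% of 2322 combinations in other events. At 0.5 units or more they were 62.0% of 271 and 54.7% of 7572. The rule holds the flank difference of a divergence at 1.5 units or more, but the combinations in other events have no such minimum. Its sign there can rest on a difference near 0, so the sets are not matched. Whether the contrast comes from the selection was not tested. By size of the flank difference, the same sign was found in 53.9% of divergences under 2 units, 58.8% of those from 2 to 3 and 59.6% of those of 3 or more.

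**Figure D2:**
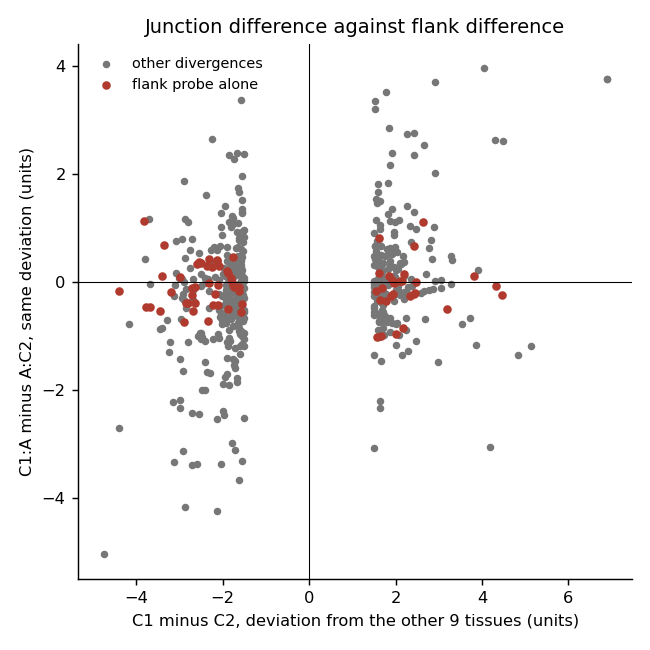
Each point is 1 of the 561 divergences, with the deviation of C1 minus C2 on the horizontal axis and that of C1:A minus A:C2 on the vertical axis, both in units of the deposited scale and relative to the median of the other 9 tissues. Points in the upper right and lower left have the same sign, 313 in all; red points are the 72 divergences in which the flank probe moved alone, and the gap in the middle is the rule's threshold of 1.5 units.

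The 4 carried classes differed in which other probes moved along. Where C2 was higher, with a median deviation of 2.19, A was higher by a median of 0.63 and A:C2 by 0.64, but C1:A by 0.25 and C1:C2 by 0.21. Where C2 was lower, with a median of -1.53, A:C2 deviated by -0.89, A by -0.68, C1:C2 by -0.57 and C1:A by -0.48. Where C1 was higher, with a median of 2.12, no other probe kind stood far from 0: A:C2 was at 0.16, A at 0.079, C1:A at 0.013 and C1:C2 at -0.029. Where C1 was lower, with a median of -1.68, the far junction A:C2 deviated by -0.76, more than the near junction C1:A at -0.34. INT had medians between -0.14 and 0.0046 in the 4 classes.

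**Figure D3:**
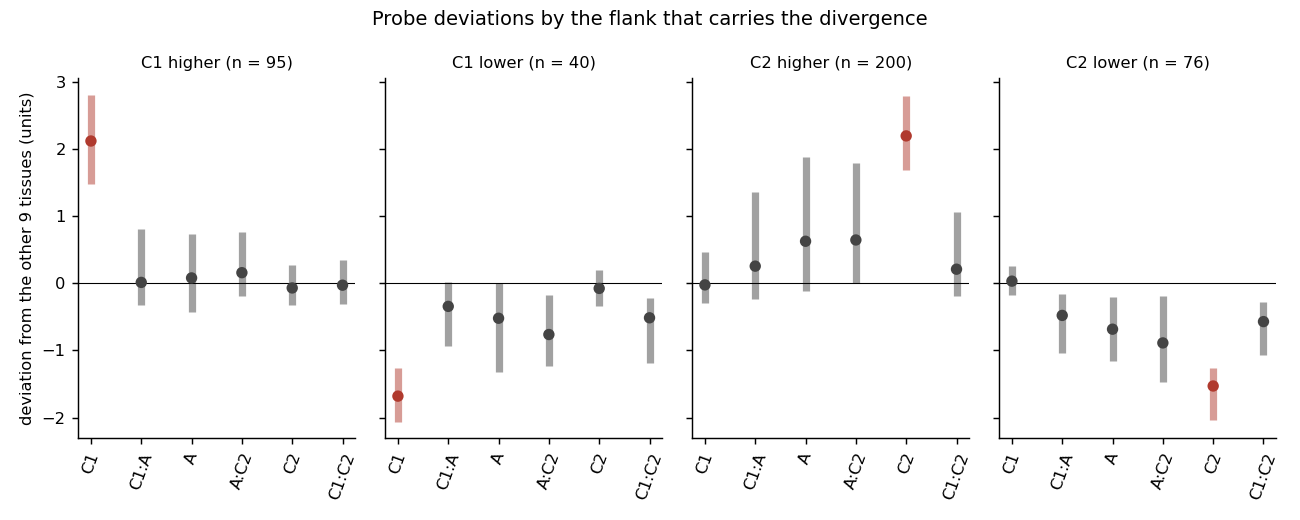
Deviation from the median of the other 9 tissues (vertical axis, units) of 6 probe kinds in the 411 divergences carried by 1 flank, in 4 panels by flank and direction. Points are medians and bars span the middle 50% of divergences, with the carrying flank, which the rule used, in red; A and A:C2 rise with C2, while C1:A and A stay near 0 where C1 is higher.

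For reference, junction probes were read in events whose flanks moved together. In the 875 combinations of non-diverging events in which both flanks were higher by 1.5 units or more, C1:A was higher by a median of 1.83, A:C2 by 1.96 and C1:C2 by 1.82. A deviation of 0.75 units or more, used below as the sign that a probe moved, was reached there by C1:A in 79.3%, by A:C2 in 80.7% and by C1:C2 in 88.5%. Over all combinations 13.5%, 14.6% and 13.0% of these probes were higher by that amount. In the divergences with C2 higher, A:C2 was higher by 0.75 or more in 97 of 200, 48.5%, and C1:A in 64, 32.0%. In those with C1 higher, C1:A was higher in 26 of 95, 27.4%, and A:C2 in 24, 25.3%. The divergent flank was thus followed by its own junction more often than by the other one for C2, and about as often for C1. In the divergences with C2 lower, A:C2 was lower in 41 of 76, 53.9%, and C1:A in 23, 30.3%, against 8.58% and 8.05% of all combinations. With C1 lower, the near junction C1:A was lower in 14 of 40, 35%, and the far junction A:C2 in 21, 52.5%. The skipping junction C1:C2 was lower in 28 of the 76 with C2 lower, 36.8%, and in 16 of the 40 with C1 lower, 40%, where 7.49% of all combinations were. The alternative exon A was higher in 96 of the 200 with C2 higher, 48.0%, and in 24 of the 95 with C1 higher, 25.3%, where 13.8% of all combinations were. It was lower in 33 of the 76 with C2 lower, 43.4%, and in 14 of the 40 with C1 lower, 35%, where 8.14% of all were.

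The same was counted where exactly 1 of the inclusion junctions moved with the flank. Among divergences carried by C2 there were 69 such cases, and in 60 of them, 87.0% (77.0% to 93.0%), the junction that moved was the near one, A:C2. Among those carried by C1 there were 33, and the near junction C1:A moved in 14, 42.4% (27.2% to 59.2%). This count was added after the values were seen. In events that did not diverge, where the carrying flank moved by 0.75 units or more, the near junction was the one that moved in 61.9% of 273 such cases for C2 and 55.8% of 199 for C1. Both junctions moved in 78 divergences carried by C2 and in 26 carried by C1. No junction moved in 111 carried by C2, 40.2%, and in 70 carried by C1, 51.9%. The near-only cases for C2 came from all 10 tissues, with 12 in testis, 7 in liver and muscle, 6 in brain, heart, intestine and kidney, 4 in spleen and 3 in lung and salivary. With testis divergences left out the C2 share was 85.7% of 56, without brain in the comparator it was 74.2% of 62, and without the combinations at 0 in all 7 probes, Ben844 in brain and heart among them, it was 86.6% of 67.

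A compact form of this pattern was a block in which A and the near junction moved with the flank while neither the far junction nor C1:C2 moved with it. For C2 the block is C2, A:C2 and A, and it was found in 33 of 276 divergences carried by C2, 12% (8.64% to 16.3%), in 28 events. For C1 the block is C1, C1:A and A, and it was found in 3 of 135, 2.22% (0.759% to 6.33%), in 3 events. The C2 blocks include Ben1920 and Ben194, each in testis and salivary. Their A, A:C2 and C2 nearly coincide, at a mean difference of 0.098 units. The C1 blocks include Ben3374 and Ben4217 in brain, with a mean difference of 0.16 units over the exon and junction probes. These are counted separately, so the counts and intervals treat near-repeats as separate cases. Over all 31260 combinations, with the flank itself moved, the C2 block was found in 0.643% and the C1 block in 0.176%. In the 1698 events that did not diverge it was found in 57 of 954 combinations in which C2 moved and carried the change, 5.97%, and in 27 of 745 for C1, 3.62%, a reference added after the values were seen. The flank needed to move by only 0.75 units there, so the sets are not matched on the size of the change. The C2 block moved upwards in 27 and downwards in 6, including Ben844 in heart with all probes at 0. C1 itself moved the same way as C2 by 0.75 or more in 1 of the 33 and the opposite way in 2. In it, A moved by a median of 1.53 units, A:C2 by 1.57 and C2 by 1.84, while C1:A moved by 0.26, C1:C2 by 0.11 and C1 by -0.18 in the same direction. Flanks stayed above the INT median throughout in 21 of the 33. The block was described after the values had been seen.

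Event Ben2456 in testis gave the lowest C1 minus C2 deviation of all, -4.75 units. A read 5.39 in testis against 1.07 to 1.83 in the other 9 tissues, A:C2 5.58 against 0.15 to 1.60 and C2 5.95 against 2.06 to 3.78. C1 read 1.54 in testis against 2.44 to 4.41, and C1:C2 1.27 against 2.18 to 4.17. For these 5 probes testis lay outside the range of the other tissues, above it for the A and C2 side and below it for C1 and C1:C2. C1:A read 0.84, inside the range of 0.46 to 1.96 and below the median of the INT probes.

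Event Ben1757 showed the C2 block in heart and in lung. C2 read 4.17 in heart and 3.57 in lung, A 4.44 and 3.80, and A:C2 4.19 and 3.83. C1 read 0.13 in heart and -0.01 in lung, C1:A 0.72 and 0.11, and C1:C2 0.18 and 0.38. These values of the C1 side lie at or near the floor. In liver every exon and junction probe of this event was high, with C1 at 5.85, A at 7.61, C2 at 7.39, C1:A at 6.09, A:C2 at 7.61 and C1:C2 at 6.34. The C1 side was therefore measurable in liver and stayed near 0 in heart and lung, where the C2 side was high. In the remaining 7 tissues C2 read between 0.71 and 2.08. The deviation of C1 minus C2 was -2.55 in lung.

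Event Ben3430 showed the block in liver and kidney. In liver A read 5.39, A:C2 5.27 and C2 5.49, and in kidney 4.47, 4.37 and 4.62. The other 8 tissues lay between 1.22 and 3.87 for A, 1.37 and 3.60 for A:C2, and 1.82 and 4.02 for C2, all below kidney and liver, with salivary nearest. C1 read 2.60 in liver and 2.71 in kidney, within the 2.12 to 4.01 of the other tissues. C1:A read 2.33 and 2.23, just below the 2.36 to 3.23 of the others. C1 minus C2 deviated by -3.12 in liver.

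Event Ben531 in testis and event Ben247 in brain and muscle had the same form, and they were picked after their values were seen. In testis A of Ben531 read 5.56 against at most 2.65 elsewhere and A:C2 5.34 against at most 2.68, while C1 read 2.12 and C1:C2 2.41, within the other tissues. C2 of this event was also high in liver, at 5.88, close to its 6.40 in testis, although A read 2.65 in liver. For Ben247, A:C2 read 4.59 in brain and 4.22 in muscle, with C1 at 1.04 and 0.88. In testis all 6 exon and junction probes of Ben247 were high, from 4.04 for A to 6.63 for C2. In brain C1:A at 2.30 and C1:C2 at 2.27 were above the INT median, so unlike in Ben1757 these junctions were not near the floor.

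**Figure D4:**
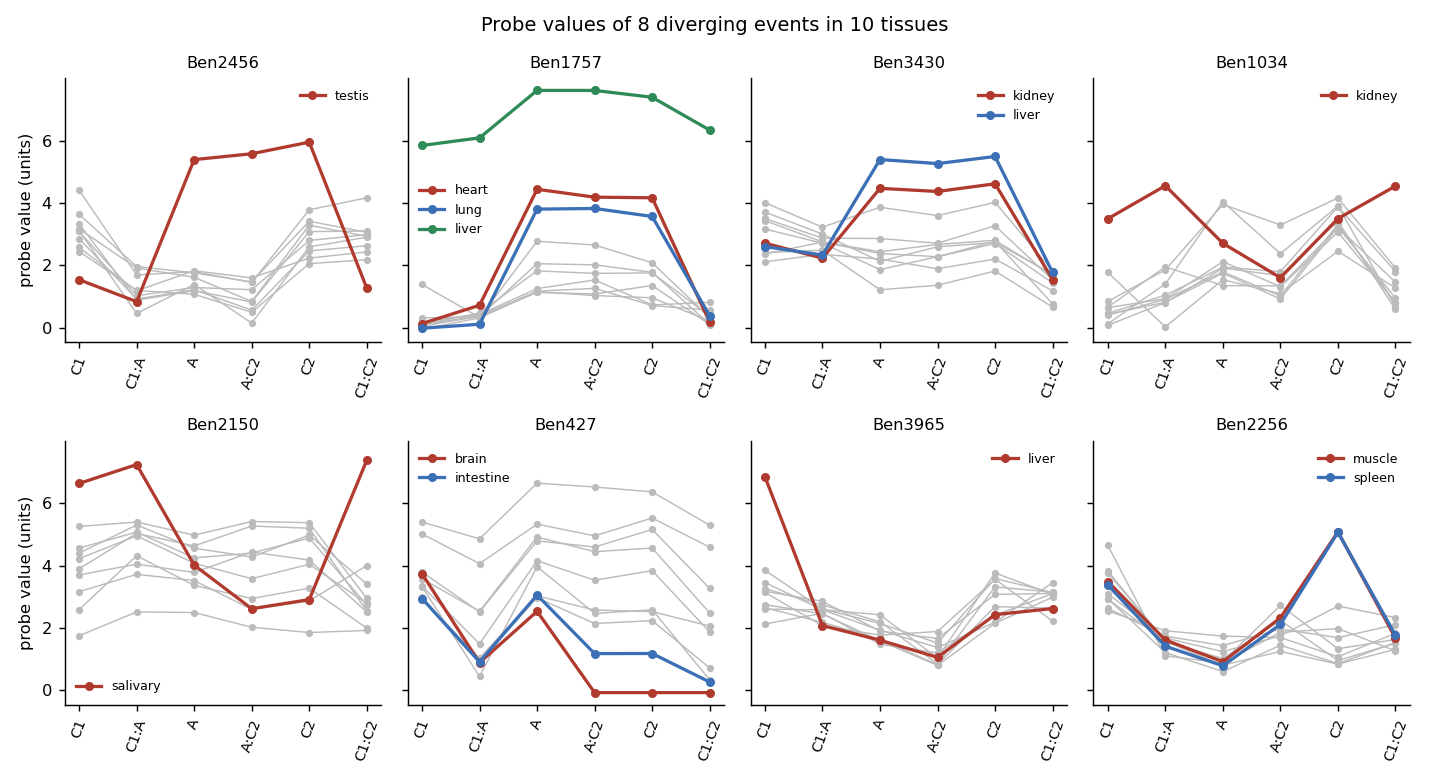
Probe values (vertical axis, units of the deposited scale after centring) of 8 diverging events over 6 probes, with the named tissues in colour and the remaining tissues in grey, 1 sample per tissue. Ben2456, Ben1757 and Ben3430 rise over A, A:C2 and C2 together, and Ben1034 and Ben2150 over C1, C1:A and C1:C2. Ben427 falls over A, A:C2, C2 and C1:C2, and Ben3965 and Ben2256 stand out in 1 flank probe. Levels of different probes are not comparable, so only the tissues within a probe are.

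A second form joined a flank to both of its own junctions but not to A's other side. The near junction and C1:C2 moved with the flank, and the far junction did not, in 18 divergences carried by C2, including Ben844 in brain with all probes at 0, and in 7 carried by C1. The form sets no condition on A, which did not move with the flank in only 6 of the 18 and 4 of the 7. The mirror case, with the far junction and C1:C2 but not the near one, occurred in 3 and 5. No share of these forms was computed over all combinations or over events that did not diverge. The counts therefore describe the members only. In event Ben1034 in kidney C1 read 3.50 against 0.082 to 1.78 in the other tissues, C1:A 4.56 against 0.027 to 1.95 and C1:C2 4.54 against 0.59 to 1.91. Kidney lay above all other tissues for these 3 probes and inside their range for A at 2.71, A:C2 at 1.61 and C2 at 3.50. C1 minus C2 deviated by 2.91, the highest value in kidney.

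In event Ben2150, also picked after its values were seen, salivary stood out in the same 3 probes. C1 read 6.64 in salivary against at most 5.26 elsewhere, C1:A 7.24 against at most 5.40 and C1:C2 7.38 against at most 4.01. A at 4.02, A:C2 at 2.62 and C2 at 2.91 lay within the other tissues. Event Ben427 had the converse, a low C2 side. In brain C2, A:C2, C1:C2 and INT were deposited as 0, and in intestine they read 1.19, 1.18 and 0.27, against 2.24 to 6.37, 2.15 to 6.53 and 0.34 to 5.30 in the other 8 tissues. A was lower as well, at 2.54 in brain against 2.97 to 6.65 in all other tissues, and at 3.06 in intestine. Its deviations were -1.62 and -1.10. C1 read 3.75 in brain and 2.95 in intestine, against 2.96 to 5.40 elsewhere. C1 minus C2 deviated by 4.31 in brain and by 2.26 in intestine. In event Ben776 C1 was low in lung and spleen, at 1.10 and 0.65 against 1.61 to 4.27, and so was C1:C2, at 0.72 and 0.87 against 1.20 to 4.13. C1:A read 0.12 and 0.091 there, below the 0.15 to 2.45 of the other tissues, and C2 read 3.65 and 3.25 against 3.30 to 5.50. The next lowest values of C1, C1:A and C1:C2 were those of intestine, at 1.61, 0.15 and 1.20. Intestine also diverged, by -2.48, more than lung at -1.59 and spleen at -1.62, with C2 at 5.06. The low C1 side was thus not particular to lung and spleen. Ben427 and Ben776 were picked after their values were seen.

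Many large divergences had no such company. In 72 divergences in 68 events, 12.8%, the carrying flank deviated by 1.5 units or more and none of the other 5 exon and junction probes deviated by 0.75 or more. Of these, 43 had C2 higher and 25 C1 higher, while C2 was lower in 3 and C1 in 1. No share of lone flanks was computed over all combinations or over events that did not diverge. The lone-flank counts therefore describe the members only. Small divergences often cannot meet this definition, which was chosen after the values were seen, because part of the difference lies in the other flank. Among divergences whose carrying flank reached 1.5 units, the share was 16.9% of 148 under 2 units, 30.4% of 115 from 2 to 3 and 29.3% of 41 at 3 or more. By tissue the lone flanks numbered 15 in testis, 14 in intestine, 10 in brain, 9 in salivary, 6 in spleen, 5 in liver, 4 in kidney and muscle, 3 in lung and 2 in heart.

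Event Ben1986 in brain was the second lowest divergence of all, at -4.41 units, and rested on C2 alone. C2 read 6.76 in brain against 1.32 to 4.72 elsewhere. A read 2.52, C1 2.48, C1:A 3.09, A:C2 1.71 and C1:C2 1.15, all inside the ranges of the other tissues. In the other 9 tissues C2 lay between 1.32 in liver and 4.72 in muscle and moved with C1 (1.56 and 4.81) and A (1.18 and 4.51). Liver and muscle were thus the lowest and highest of these 9 tissues for C1, A and C2 alike, and brain stood apart in C2 alone.

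In liver C1 of event Ben3965 read 6.86 against 2.13 to 3.85, while C1:A at 2.08 and C1:C2 at 2.63 were inside their other values. C1 minus C2 deviated by 4.46. In salivary C1 of Ben1245 read 6.91 against at most 3.46, and C1 minus C2 deviated by 5.13. Its C1:A at 0.43 and C1:C2 at 0.36 were within the other tissues, but A:C2, which lacks C1, was the highest of the 10 at 3.43 against 1.96 to 3.31. With no other probe moving, C1 in salivary read 7.28 against at most 4.42 in Ben144 and 7.71 against at most 5.16 in Ben3806. Ben3806 also diverged in testis through the opposite flank, with C2 at 6.79 there against 2.98 to 4.37 elsewhere, while C1 at 3.97 was within its other values. Ben144 and Ben3806 were picked after their values were seen.

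A pair of events had a high C2 in muscle and in spleen. C2 of Ben134 read 4.35 in muscle and 4.51 in spleen, against at most 1.08 in the other 8 tissues, and C2 of Ben2256 read 5.09 and 5.07 against at most 2.71. For Ben134 the junction A:C2 read 1.41 in muscle and 1.57 in spleen, against 1.45 to 3.15 elsewhere, and for Ben2256, picked after its values were seen, 2.33 and 2.12 against 1.25 to 2.73. A:C2 thus stood above the other tissues in neither event. Among the 76 events that diverged in exactly 2 tissues, 7 did so in kidney and liver in the same direction and 5 each in muscle and spleen, in kidney and testis, and in testis and liver. Ben134 and Ben2256 diverged in 3 tissues each and are not among them. The pairs of tissues given are the most frequent ones, and no share over all events is given for them. Most comparator samples are the same for both tissues, so these counts describe the members only.

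The most extreme members of the other tissues had no single form. In heart C1 of Ben720 read 1.44 against 1.77 to 5.10, while C2 at 5.60 and C1:C2 at 5.83 were within their ranges. C2 of Ben597 in intestine read 5.73 against 2.18 to 3.97, with A:C2 at 2.13 unmoved, and C1 of Ben3683 read 4.90 against 2.84 to 4.73. In lung all 6 exon and junction probes of Ben2508 were the highest of the 10 tissues, C1 at 5.71 against at most 1.84, C1:C2 at 5.69 against 2.93 and C2 at 4.95 against 3.11. C2 of Ben3082 in salivary read 6.04 against 1.94 to 5.39, with A:C2 at 4.37 inside its other values. In spleen C2 of Ben3726 read 0.40 and C1:C2 0.21, both the lowest of the 10 tissues.

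A few events diverged in 5 or 6 tissues. In event Ben3027 C2 read 5.18 in kidney, 5.34 in liver and 5.18 in testis against 2.66 to 4.05 elsewhere, whereas C1 was highest in salivary, at 5.39 against 2.85 to 3.95. A:C2 followed C2 in liver and kidney, at 3.99 and 3.07. It read 2.59 in testis, below the 2.76 of spleen. In Ben3848 C2 was highest in testis, liver, kidney and heart, at 5.31, 4.80, 4.16 and 3.38, and A in the same 4 tissues, at 5.13, 4.90, 4.28 and 3.85. C1 of Ben3848 read only between 2.98 and 4.29 over all 10 tissues. In muscle and spleen its A:C2 read 4.87 and 4.95 and its C1:C2 4.81 and 4.85, although C2 read 2.29 and 2.79 there. In Ben737, which diverged in 6 tissues, C2 ranged from 0.44 in spleen to 6.57 in intestine and C1 from 2.61 in testis to 5.77 in intestine.

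Members with both flanks well above the floor were rare. Of 123 events with C1 and C2 at 3 units or more in every tissue, 7 diverged, with 9 divergences in all. The junction difference had the sign of the flank difference in 8 of these 9. In Ben3149, Ben3702 and Ben1908 it was only 0.035, 0.069 and -0.087 units, so its sign there says little. Ben1746 in testis and liver and Ben387 in salivary and intestine are also among the 8. The share was not computed over all 123 events. Event Ben1746 was one of the 7. Its C2 read 5.56 in testis and 4.95 in liver against 3.66 to 4.66 elsewhere, A:C2 4.73 and 3.88 against 2.42 to 3.40, and A 4.53 and 3.67 against 2.34 to 3.31. C1 was lowest in liver at 4.93 and next lowest in testis at 5.40, with 5.59 to 6.68 elsewhere. Testis and liver thus stood above the other tissues in all 3 probes of the C2 side. The other large one was Ben387, whose C1 read 6.98 in salivary and 6.39 in intestine against 3.58 to 4.37. There A read 2.499 and 2.005 and A:C2 1.95 and 1.31, among the lowest together with spleen at 2.01 and 1.61. C1:A at 3.25 and 2.83 and C1:C2 at 4.43 and 4.20 were within the other tissues.

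Some members had nearly the same values, the nearest thing to a repeat in these data. In 6 pairs of members the 60 values of the exon and junction probes differed by a mean of 0.14 to 0.25 units, whereas the next closest of the 76245 pairs differed by 0.45. The limit of 0.25 was set after this gap was seen, and the files do not say whether the events of a pair share a gene. The SD of the difference over the 60 values lay between 0.17 and 0.32 units. In 5 pairs both events diverged in the same tissue and direction. C1 minus C2 deviated in brain by -2.11 and -1.88 in Ben2984 and Ben4085, by 2.28 and 2.42 in Ben3374 and Ben4217, and by 2.44 and 1.51 in Ben3274 and Ben4170. In testis it deviated by -2.56 and -3.01 in Ben2575 and Ben3964 and by 2.01 and 1.68 in Ben1883 and Ben3746. In the sixth pair, Ben1442 and Ben557, the values were -1.53 and -1.29 in liver and -1.28 and -1.56 in spleen, on either side of the threshold. Between the events of a pair, the divergences were closest in Ben3374 and Ben4217 and farthest apart in Ben3274 and Ben4170. Both events of a pair were read in the same samples, so such pairs show nothing of the spread between animals.

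In the pair Ben3374 and Ben4217 the block lay on the C1 side. In brain C1 read 4.26 and 4.44, C1:A 4.44 and 4.72 and A 5.26 and 5.43, the highest of the 10 tissues in each. C2 read 3.07 and 3.19, within the other tissues, and C1:C2 1.43 and 1.39, against 1.16 to 2.63 and 1.46 to 2.79. A:C2 read 1.94 and 2.21 in brain but 4.39 and 4.45 in heart, where A was nearly as high at 4.54 and 4.52. These are 2 of the 3 C1 blocks, the other being Ben1439 in testis.

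In 5 further pairs the events shared the values of A, A:C2 and C2 but differed in C1, and 1 pair shared C1, C1:A and A but differed in C2. The limits were a mean difference under 0.25 units for the shared side and at least 0.5 for the other flank, set after the values were seen. Events Ben1920 and Ben194, both members, differed by a mean of 0.098 units over A, A:C2 and C2. In both, C2 was highest in testis, at 5.45 and 5.44, and in heart, at 5.19 and 5.18, and lowest in salivary, at 2.63 and 2.34. Their C1 probes differed by a mean of 0.74 units. C1 of Ben1920 was highest in liver and brain, at 5.20 and 5.16, and lowest in intestine at 3.43, whereas C1 of Ben194 was highest in intestine at 5.39 and lowest in liver at 3.96. Within the same C2 side, the 2 C1 exons thus had opposite order in liver and intestine. C1:A of Ben1920 ran from 0.85 in brain to 3.81 in heart, and C1:A of Ben194 from 4.14 in liver to 6.12 in intestine.

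Event Ben1034, the kidney event above, shared its C2 side with Ben1031, which was not a member, at a mean difference of 0.12 units. In kidney C2 read 3.50 and 3.51, A 2.71 and 2.57 and A:C2 1.61 and 1.54. C1 of Ben1034 was highest in kidney, at 3.50, where C1 of Ben1031 read 2.13. C1 of Ben1031 was highest in brain, at 3.24, where C1 of Ben1034 read 0.84. C1:A of Ben1031 was also highest in kidney, at 1.43 against at most 1.19 elsewhere, and its C1:C2 read 1.21 there, below 2.30 in brain and above the at most 0.62 of the other 8 tissues. In kidney the junctions of C1 thus stood far above the other tissues in Ben1034 only. Those of Ben1031 lay close to the INT median of 1.21, and C1 itself stood out in Ben1034 alone.

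**Figure D5:**
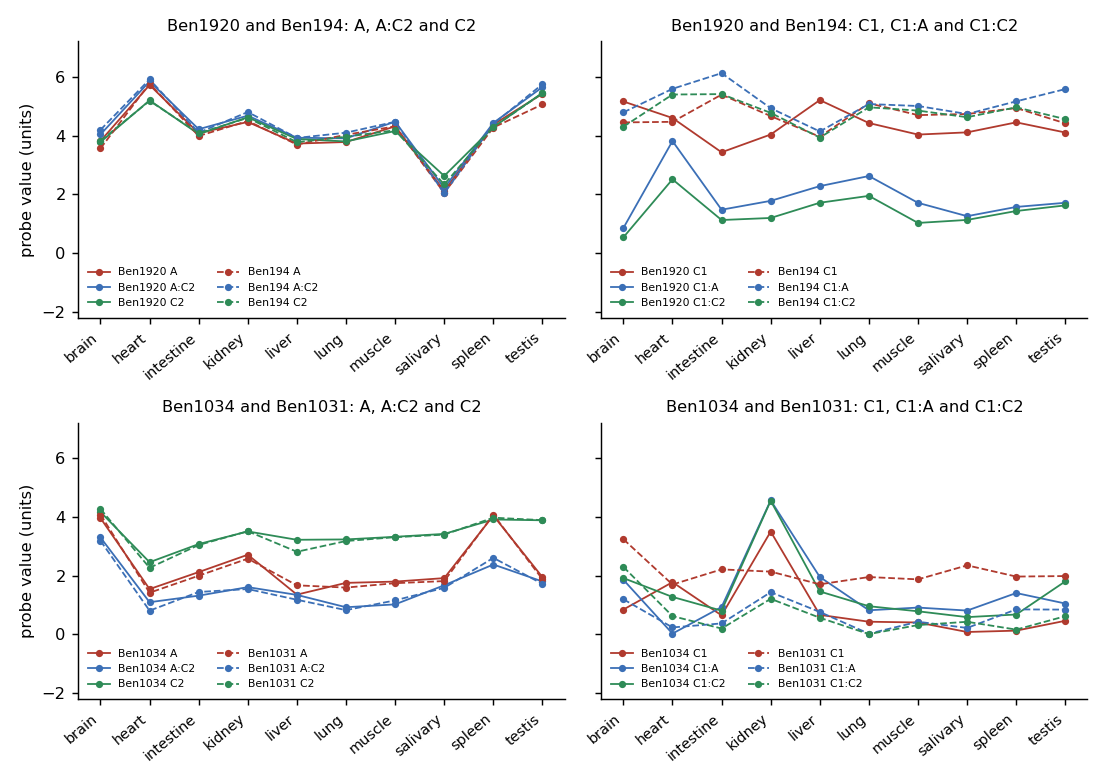
Probe values (vertical axis, units of the deposited scale after centring) in 10 tissues for 2 pairs of events that share the C2 side, Ben1920 with Ben194 above and Ben1034 with Ben1031 below, 1 sample per tissue. On the left the solid and dashed lines of A, A:C2 and C2 nearly coincide; on the right C1 and its junctions part, with Ben1034 high in kidney at 3.50 to 4.56.

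Members were also compared with the 1698 other events that reached the flank minimum. The junction index sets the average of both inclusion junctions against C1:C2. It can rise with exon inclusion but also where only 1 inclusion junction moves. In Ben2456 in testis it deviated by 3.80 while C1:A deviated by -0.35. It is therefore not read here as exon inclusion alone. It passed 1.5 units in at least 1 tissue in 128 of 391 members, 32.7% (28.3% to 37.5%), in 385 of the 1698 others, 22.7% (20.7% to 24.7%), and in 20.7% of all events. In the tissue of the divergence itself it passed in 75 of 561, 13.4%, against 2.97% of all combinations. Probes other than C1 had lower levels in members, with a median of 2.10 for A against 2.53 in the others, 2.05 against 2.37 for C1:A, 1.98 against 2.37 for A:C2 and 1.97 against 2.34 for C1:C2. C1, which the rule used, had medians of 2.94 and 2.93. The range of a probe over the 10 tissues was wider in members, with medians of 2.31 against 2.03 for A and 1.23 against 1.17 for INT. Events are not replicates and may share a gene, so these differences carry no test.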

How the data were processed

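The deposited table holds 1 value per probe and sample, treated as a score because the authors' labels and table header state neither its base nor its transformation. How arrays were scanned, background-corrected or normalized is not given in the sources used here. Each of the 10 arrays was shifted to the mean of the array medians. No column was left unused, and with 1 sample per tissue no test was run and no p-value computed. The members, comparisons and lists were chosen with earlier results of these data known. Both flanks had to reach 3 units together in some tissue. The carrying flank deviates at least 2 times more than the other, and a probe moved at 0.75 units. Named events are the extremes over all tissues, in each tissue, among events with high flanks and by number of tissues, plus those at the threshold. Others are said to be picked later. The planned gene lists were not applied, because no table names the genes. Shares have 95% Wilson intervals. The calling of divergences and the junction sign were checked on simulated data. A pass was required only for shifts of 3 units or more, in events with both flanks above 3 units. The near-only, block and lone-flank counts were not checked in this way. The tools were pandas 2.3.3 and numpy 2.4.6 under Python 3.11.15, with scipy 1.17.1 for correlations and matplotlib 3.10.9 for plots.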

Additional observations from a re-analysis of the deposited data

How the results depend on the processing

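No paired analysis was possible because a tissue is represented by a single sample and nothing was tested over replicates. Depth is limited by the arrays' signal over background. Of 61 named divergences all kept their sign under quantile normalization and 58 stayed past 1.5 units; with columns as deposited all 61 did. The cause of the shifts below was not tested, except that thresholds and filters change counts by construction.

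Under quantile normalization C2 carried 45% and C1 was relatively higher in 45.3% of 580 divergences. Leaving muscle out of the comparator put the latter at 45.01%, and leaving out brain put the near-only share for C2 at 74.2%. At a threshold of 1 unit there were 774 events and 1483 divergences, with C1 relatively higher in 45.2% and a near-only share of 72.8% for C2. At 2 units there were 176 and 212, with 53.8% carried by C2. With a flank minimum of 4 there were 200 and 299, and none of 59 divergences carried by C1 had the block (0%). With flanks above the INT median there were 344 divergences and a near-only share of 94.4% for C2. With flanks at 3 or more in every tissue there were 7 events and 9 divergences, with the junction sign shared in 88.9%, 33.3% carried by C2, 66.7% with C1 relatively higher, 100% near-only for C2 (1 case), the C2 block in 33.3% of 3 and the C1 block in 0% of 5. Some of these shared signs rest on junction differences near 0, as given above. With the larger deviation counted as carrying, C2 carried 66.1%. The junction sign was shared in 62.0% at a junction difference of 0.5 or more, and in 60.0% of 120 divergences with both inclusion junctions above the INT 95th percentile, an alternative chosen after seeing the data. So were leaving out testis, salivary, muscle and spleen, events at 0 in all 7 probes or 1 event of each like pair, and counting a probe as moved at 0.5 or 1. The near-only share and the block were also chosen then.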
